A study of Mus musculus with 12 samples.

Results

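The genes described here are 8 transcription factors of the primitive streak and of the mesoderm that has just left it: T (also called Brachyury or Tbxt), Eomes, Mixl1, Evx1, Mesp1, Mesp2, Tbx6 and Msgn1. They were taken by name, not by their level, and are 8 of the 38924 genes counted. All 8 names matched a counted gene. RNA was sequenced from cells sorted out of mouse embryos at E7.25, with 3 libraries of each of 4 cell types. Every library came from the mouse line Foxa2Cre:Rosa26-YFP, so no group lacks the Cre or the reporter. In this line Cre recombinase is driven by Foxa2 and switches on yellow fluorescent protein (YFP), which then stays on in the descendants of a cell that once expressed Foxa2. The 4 groups were YFP-positive cardiac mesoderm, called ventricular in the labels, YFP-negative cardiac mesoderm, called non-ventricular, endoderm sorted as EPCAM-positive, and hematopoietic mesoderm sorted as KDR-positive. YFP marks a history of Foxa2 expression and not its present level. The labels do not say whether replicates came from separate embryos or litters or how many embryos were pooled, so p-values measure only the spread between these libraries, which may be technical.

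The primitive streak is the posterior strip of the gastrulating embryo where epiblast cells lose their epithelial form and move inward to become mesoderm and endoderm. Wnt and Nodal signals switch on the T-box factors T and Eomes and the homeobox factors Mixl1 and Evx1 there, and cells that leave the streak take up Mesp1 and Mesp2 (the first mesoderm to leave, including the cells that build the heart) or Tbx6 and Msgn1 (the later, paraxial mesoderm that forms somites). Cardiac mesoderm at the stage studied has left the streak only recently, and blood-forming mesoderm is also a product of the streak.

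The counts assigned to genes ran from 4472800 to 7888631 per library, so that 3 counts amounted to 0.357 to 0.723 CPM. Genes with a count numbered 12484 to 14491 per library in hematopoietic mesoderm and 13671 to 14677 in YFP-positive cardiac mesoderm. They numbered 15356 to 16078 in the YFP-negative fraction and 18547 to 18618 in endoderm. Between libraries of 1 type, Pearson r of log2 CPM was 0.745 to 0.811 in hematopoietic mesoderm and 0.924 to 0.93 in endoderm, with the cardiac fractions between. CPM (a gene's counts scaled to the same total in every library) put libraries of different depth side by side, and levels are given below as CPM after trimmed-mean (TMM) scaling. Marker genes, with the 8 genes left out, were high in the types that the labels name: 15 endoderm markers summed to 3429 to 6836 CPM in endoderm and 50.6 to 291 elsewhere, and 11 hematoendothelial markers summed to 2133 to 2977 CPM in hematopoietic mesoderm and 49.3 to 1008 elsewhere. Epcam is in the first list and Kdr in the second, and both are genes of the sorts, so a high level of either may follow from the sort. Epcam had 204 to 240 CPM in endoderm. In the same libraries Apob had 1034 to 2524 CPM and Cubn 309 to 1497, so both carried much of the endoderm sum. Foxa2 had 52.3 to 62.3 CPM there and Sox17 111 to 155. Which kinds of endoderm, embryonic or extraembryonic, these libraries held was not tested. Kdr had 665 to 965 CPM in hematopoietic mesoderm and 444 to 622 in the cardiac fractions. The 11 cardiac mesoderm markers summed to 1613 to 2273 CPM in the cardiac fractions and 249 to 325 CPM in endoderm. The endoderm libraries also held other markers: 8 epiblast markers summed to 1558 to 1650 CPM there and 381 to 874 elsewhere, and 5 node and notochord markers to 135 to 206 CPM there and at most 12 elsewhere. Of the trophoblast and extraembryonic ectoderm markers, Elf5 had 5.18 to 35.3 CPM in endoderm and at most 0.579 elsewhere. Esrrb had 5.41 to 25.6 CPM in endoderm but up to 67.8 in hematopoietic mesoderm. Cdx2 had at most 7.96 CPM in endoderm but up to 22 in YFP-negative cardiac mesoderm. Whether cells of these kinds have a part in the endoderm levels below, those of T, Eomes and Mixl1 among them, was not tested. Hematopoietic replicate 3 stood apart from its type. Its cardiac mesoderm markers summed to 1434 CPM against 556 and 559 in replicates 1 and 2, its 6 extraembryonic mesoderm markers to 696 against 185 and 257, and its 5 trophoblast and extraembryonic ectoderm markers to 485 against 47.7 and 81.4. Hand1 is in each of these 3 lists and Foxf1 in the first 2, and 3 of the 6 extraembryonic mesoderm markers had 0 counts in every hematopoietic library. Hand1 alone had 47.5, 81.4 and 417 CPM in hematopoietic replicates 1, 2 and 3, while Foxf1 had at most 7.1. Hand1 thus made up nearly all of the trophoblast and extraembryonic ectoderm sum in replicates 1 and 2 and most of it in replicate 3. Bmp4, in the extraembryonic mesoderm list, had 136, 168 and 275 CPM. The 3 sums are not independent of each other. Whether these markers have a part in the other values of that library was not tested. The numbers of calls against hematopoietic mesoderm among the 8 genes are given with and without it. Values of single genes without it are given only where stated. Of the cardiac libraries, YFP-positive replicate 3 had the highest sums of endoderm (240 CPM), epiblast (874) and node and notochord markers (12). It had the lowest sums of extraembryonic mesoderm (457) and of trophoblast and extraembryonic ectoderm markers (314), and lay within the range of the others for the remaining lists. Hand1 alone had 303 to 384 CPM in the cardiac libraries and made up nearly all of the trophoblast and extraembryonic ectoderm sum in each. Whether the marker sums of YFP-positive replicate 3 have a part in the comparison of the cardiac fractions was not tested.

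Short stretches of DNA just before the start sites are shown for T, Mesp1 and Msgn1, because these genes follow 3 different patterns over the 4 types: T was counted in all 12 libraries, Mesp1 mainly in both cardiac fractions, and Msgn1 almost wholly in the YFP-negative fraction. They are reference sequence from RefSeq (GRCm38.p6), given 5′ to 3′ on the gene's strand, and 7 of the 8 genes matched the table used. Capitals mark the letters AGGTGT, the core of the site bound by T-box factors, and CTTTGA, the core of the site bound by the TCF and LEF factors of the Wnt pathway, on either strand (ACACCT and TCAAAG on the opposite one). The stretch for T lies at chr17:8434173-8434422 on the plus strand, that for Mesp1 at chr7:79793789-79793840 on the minus strand, and that for Msgn1 at chr12:11208973-11209198 on the minus strand.
T: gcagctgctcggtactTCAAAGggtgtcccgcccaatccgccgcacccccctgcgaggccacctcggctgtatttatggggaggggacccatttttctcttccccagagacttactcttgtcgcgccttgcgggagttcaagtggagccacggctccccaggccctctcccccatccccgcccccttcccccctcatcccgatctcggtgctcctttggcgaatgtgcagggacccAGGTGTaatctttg
Mesp1: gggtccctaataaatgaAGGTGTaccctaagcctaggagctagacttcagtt
Msgn1: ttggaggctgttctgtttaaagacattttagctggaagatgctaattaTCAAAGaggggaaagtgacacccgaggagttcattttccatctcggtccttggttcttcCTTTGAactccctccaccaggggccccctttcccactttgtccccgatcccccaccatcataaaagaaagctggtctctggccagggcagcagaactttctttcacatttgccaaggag
Over windows of 300 bases around the start site, AGGTGT was found on either strand in 13.7% of 32851 RefSeq promoters and CTTTGA in 16% of them. The window of T held AGGTGT once, ending at base -9 from the RefSeq start, and CTTTGA once, on the opposite strand. Mesp1 had 2 matches to each motif, of which 1 to AGGTGT is in the stretch printed, because GENCODE places the start of this gene farther upstream than RefSeq and only bases before both starts are printed. Msgn1 had 2 matches to CTTTGA and 0 to AGGTGT. Mesp2 and Evx1 had 1 match each to AGGTGT and 0 to CTTTGA, while Eomes and Tbx6 had 0 to either. A match describes the letters only.

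T is the founding T-box factor, needed in the streak and its posterior mesoderm (ENSMUSG00000062327, GRCm38 chromosome 17, 8434423 to 8442496, plus strand). Hematopoietic mesoderm had 261, 213 and 374 CPM in replicates 1, 2 and 3, and endoderm had 196, 228 and 105 CPM. YFP-negative cardiac mesoderm had 105, 122 and 124 CPM, and YFP-positive cardiac mesoderm had 73.7, 18.4 and 104 CPM. All 6 cardiac libraries were below all 3 hematopoietic ones, whereas hematopoietic mesoderm overlapped endoderm and endoderm overlapped the YFP-negative fraction. The means fell in the order hematopoietic mesoderm, at 283 ± 82.8 CPM (SD, n = 3), endoderm, at 176 ± 63.5, YFP-negative cardiac mesoderm, at 117 ± 10.3, and YFP-positive cardiac mesoderm, at 65.5 ± 43.6. The YFP-positive libraries all lay below the YFP-negative ones, but YFP-positive replicate 3 missed the lowest of them by less than 1 CPM, and the log2 difference of -0.84 ± 0.48 (SE) had an edgeR adjusted p of 0.756. T was thus measured in every type, and the mean of both cardiac fractions was 3.23-fold lower than hematopoietic mesoderm, a log2 difference of -1.69 ± 0.40 (SE) with an edgeR adjusted p of 0.045. That call was lost with the replicate number as a block (edgeR adjusted p = 0.0704). It was also lost when 1 library was left out in 6 of 9 cases, those without YFP-positive replicate 1, YFP-negative replicates 1, 2 or 3 and hematopoietic replicates 1 or 3, where edgeR adjusted p ran from 0.0646 to 0.0959. The log2 difference itself stayed between -1.94 and -1.43 in all 18 alternatives.

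Eomes is the T-box factor that acts with Nodal signalling in the anterior streak, upstream of both cardiac mesoderm and definitive endoderm (ENSMUSG00000032446, chromosome 9, 118478212 to 118486132, plus strand). YFP-positive cardiac mesoderm had 489, 340 and 453 CPM, and YFP-negative cardiac mesoderm had 383, 311 and 408 CPM. Endoderm had 275, 308 and 283 CPM, with the smallest relative spread of any of the 8 genes in any type (SD 17.1 on a mean of 288 CPM). Hematopoietic mesoderm had 49.4, 28.2 and 264 CPM, so replicate 3 reached nearly the level of endoderm while the others were far below. No library of hematopoietic mesoderm overlapped any other type, and the 2 cardiac fractions overlapped each other. The YFP-negative libraries all lay above endoderm, by a log2 difference of 0.35 ± 0.56 (SE) and with an edgeR adjusted p of 1. With all libraries, both cardiac fractions together were 3.48-fold above hematopoietic mesoderm, a log2 difference of 1.80 ± 0.54 (SE) that did not pass the test (edgeR adjusted p = 0.0885). Without hematopoietic replicate 3 the log2 difference was 3.36 and passed (edgeR adjusted p = 5.51e-05), and that of endoderm against hematopoietic mesoderm was 2.90 (edgeR adjusted p = 0.000119). An antisense gene, Gm33460, overlaps 118 exon bases of Eomes in the GENCODE annotation and was not among the genes counted, so reads from it cannot be told apart from Eomes where strand was not used.

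Mixl1 is a homeobox factor that Nodal signalling induces in the streak and that helps to form endoderm (ENSMUSG00000026497, chromosome 1, 180693043 to 180697034, minus strand). Its levels were 168, 147 and 352 CPM in YFP-positive and 261, 227 and 328 CPM in YFP-negative cardiac mesoderm. Endoderm had 118, 207 and 186 CPM, and hematopoietic mesoderm had 50.8, 27.9 and 363 CPM. Hematopoietic replicate 3 had the highest level of Mixl1 among all 12 libraries, and replicates 1 and 2 of that type had the lowest. The means ran from 272 ± 51.2 CPM (SD, n = 3) in the YFP-negative fraction to 222 ± 113 in the YFP-positive fraction, 170 ± 46.6 in endoderm and 147 ± 187 in hematopoietic mesoderm, and each type overlapped the next in this order. The difference between both cardiac fractions and hematopoietic mesoderm had an edgeR adjusted p of 0.544, and without hematopoietic replicate 3 the log2 difference was 2.65 with an edgeR adjusted p of 0.00528.

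Evx1 is a homeobox factor of the posterior streak that responds to Wnt and BMP signals (ENSMUSG00000005503, chromosome 6, 52313498 to 52318378, plus strand). YFP-negative cardiac mesoderm had 82.5, 62.2 and 96.6 CPM, the 3 highest of the 12 libraries. YFP-positive cardiac mesoderm had 7.49, 3.83 and 48.9 CPM, endoderm 23.4, 12.4 and 21.3 CPM, and hematopoietic mesoderm 0, 23.9 and 21.4 CPM. The YFP-negative fraction did not overlap any other type, and the other types all overlapped one another. Its mean of 80.4 ± 17.3 CPM (SD, n = 3) stood 4.01-fold above the YFP-positive mean of 20.1 ± 25, where replicate 3 carried most of the level. None of these differences passed the test: the log2 difference of the YFP-positive from the YFP-negative fraction was -2.0 ± 1.24 (SE), with an edgeR adjusted p of 0.781, and was -3.83 without YFP-positive replicate 3 (edgeR adjusted p = 0.596). The YFP-negative fraction differed from endoderm by 2.08 ± 1.25 (SE; edgeR adjusted p = 0.731) and from hematopoietic mesoderm by 2.41 ± 1.26 (SE; edgeR adjusted p = 0.353), both on the log2 scale. The first of these passed with limma voom (adjusted p = 0.00663) and in an edgeR fit restricted to both types (adjusted p = 0.00751), but in no other alternative. Evx1os, an antisense gene that shares 73 exon bases with Evx1, had 47.9, 39.1 and 34 CPM in YFP-negative cardiac mesoderm, and the YFP-positive libraries had 8.53, 0.365 and 24.6 CPM. Since the strand setting is not given in the sources used here, reads of the pair may be mixed where they overlap.

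**Figure D1:**
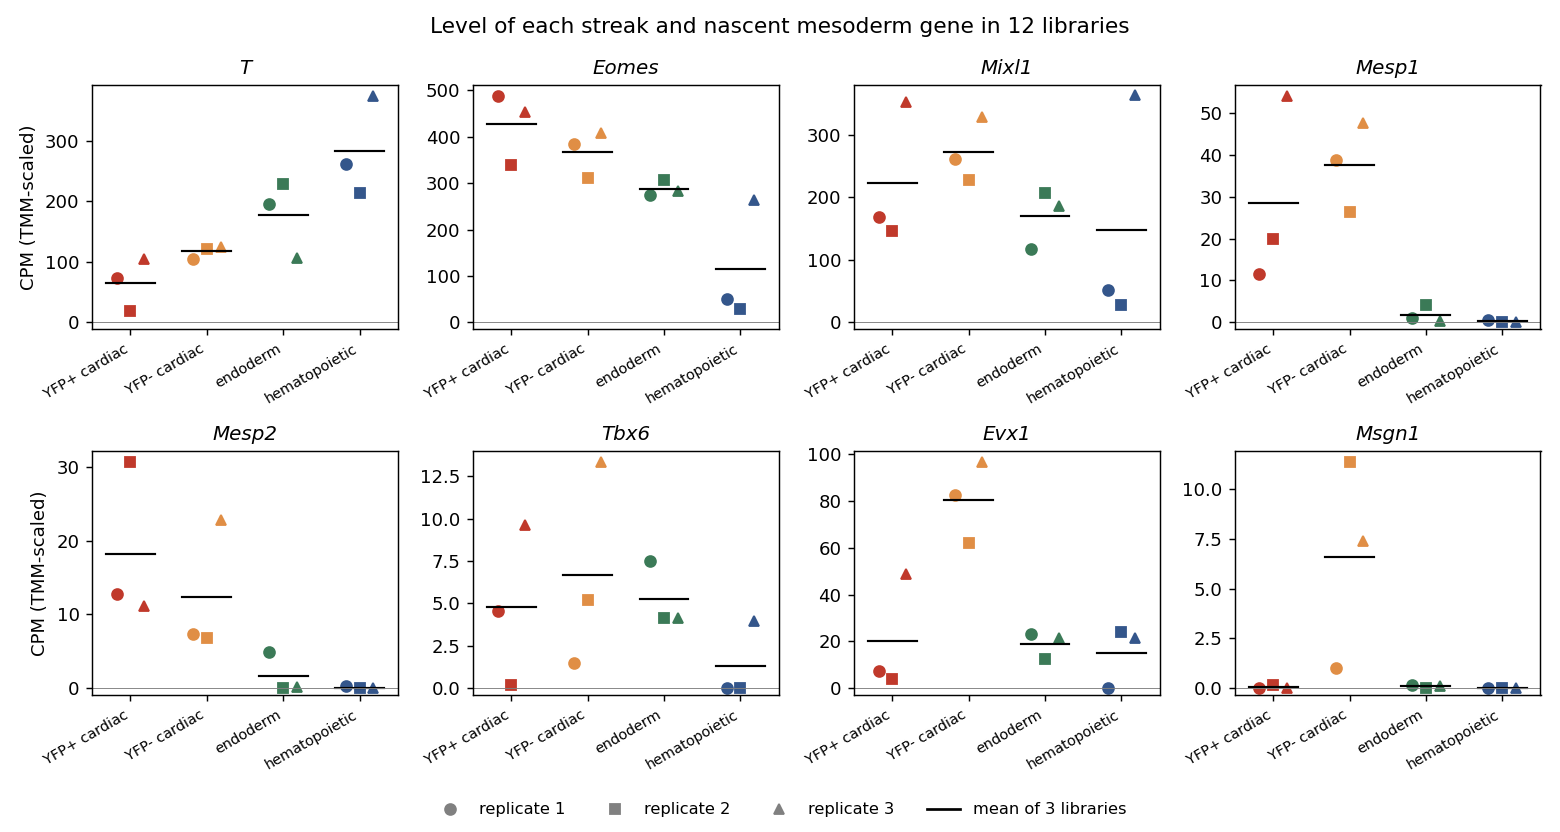
TMM-scaled CPM (vertical axes, each gene on its own scale) of the 8 genes in the 12 libraries by sorted cell type; symbols mark replicate numbers and black lines the mean of 3 libraries. Mesp1 and Mesp2 are higher in all 6 cardiac libraries than in the other 6, Msgn1 and Evx1 are highest in the 3 YFP-negative libraries, and hematopoietic replicate 3 (blue triangle) lies far above its type for Eomes and Mixl1.

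Mesp1 is a basic helix-loop-helix factor expressed as cells leave the streak and marks the earliest cardiac progenitors (ENSMUSG00000030544, chromosome 7, 79792241 to 79793788, minus strand). YFP-positive cardiac mesoderm had 11.5, 19.9 and 54 CPM, and YFP-negative cardiac mesoderm had 38.9, 26.5 and 47.7 CPM. Endoderm had 1.11, 4.14 and 0.238 CPM. Hematopoietic mesoderm had 0.482, 0.173 and 0 CPM, from 3 counts in all. Every cardiac library was above every endoderm and hematopoietic library, the 2 cardiac fractions overlapped, and so did endoderm and hematopoietic mesoderm. The means were 37.7 ± 10.6 CPM (SD, n = 3) in the YFP-negative fraction, 28.5 ± 22.6 in the YFP-positive fraction, 1.83 ± 2.05 in endoderm and 0.218 ± 0.244 in hematopoietic mesoderm. In bulk samples, fewer cells of a type and less RNA per cell cannot be told apart.

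Mesp1 was the 1 gene of the 8 that passed the test in each cardiac fraction separately against hematopoietic mesoderm. The pooled counts gave a ratio of 142 (95% exact interval 48.4 to 692) for the YFP-positive fraction and 184 (62.6 to 892) for the YFP-negative fraction. These intervals cover counting error only. The fitted log2 differences, which depend on the prior count at such low numbers, were 6.94 ± 1.43 (SE; edgeR adjusted p = 0.0356) and 7.35 ± 1.46 (SE; edgeR adjusted p = 0.0415). With the replicate number as a block these became 0.0754 and 0.0847 (edgeR adjusted p), so neither call held. For the YFP-positive fraction the call was kept without YFP-positive replicate 1 or hematopoietic replicate 3 and lost without YFP-positive replicates 2 or 3 or hematopoietic replicates 1 or 2 (edgeR adjusted p from 0.0511 to 0.0776). For the YFP-negative fraction it was kept only without hematopoietic replicate 3 and lost in the other 5 fits that left out 1 library of either type (edgeR adjusted p from 0.0597 to 0.141). The mean of both fractions gave 7.14 ± 1.41 (SE; edgeR adjusted p = 0.0211), which held with the block (edgeR adjusted p = 0.0497), without hematopoietic replicate 3 (0.0293), and in 8 of the 9 fits without 1 library, the exception being that without YFP-negative replicate 3 (0.0573). Limma voom did not call it (adjusted p = 0.0983). The calls of the single fractions were also lost with limma voom (adjusted p = 0.198 and 0.0926), in edgeR fits of only the types compared (0.202 and 0.159) and against a log2 difference over 1 (0.067 and 0.08). Against endoderm, where 41 counts were found, the mean of both fractions was 17.7-fold higher and did not pass (log2 difference 4.14 ± 1.16, SE; edgeR adjusted p = 0.0649), although DESeq2 gave an adjusted p of 0.000117.

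Mesp2, the neighbouring paralog best known for placing somite boundaries, lies 16.9 kb from Mesp1 on the opposite strand (ENSMUSG00000030543, chromosome 7, 79810727 to 79813439, plus strand). YFP-positive cardiac mesoderm had 12.7, 30.6 and 11.1 CPM of it, and YFP-negative cardiac mesoderm had 7.37, 6.87 and 22.7 CPM. Endoderm had 4.93, 0 and 0.119 CPM, and hematopoietic mesoderm had 0.241, 0 and 0 CPM, from 1 count. As for Mesp1, all 6 cardiac libraries were above all 6 others, and the order of the cardiac fractions differed: the means were 18.1 ± 10.8 CPM (SD, n = 3) with a Foxa2 history and 12.3 ± 9.02 without it, with overlapping libraries. The pooled ratio of both cardiac fractions to hematopoietic mesoderm was 222, with a 95% exact interval from counting of 39.6 to 8773, and the test did not pass (edgeR adjusted p = 0.0765), while DESeq2 gave an adjusted p of 0.000476. Against endoderm the log2 difference was 3.15 ± 1.57 (SE; edgeR adjusted p = 0.386), and it was 7.51 without endoderm replicate 1, which held nearly all of the endoderm counts (edgeR adjusted p = 0.113). Per kilobase of exon, Mesp1 stood at 22.3 CPM per kb in YFP-positive cardiac mesoderm, where Mesp2 stood at 9.33. In YFP-negative cardiac mesoderm the levels were 29.6 CPM per kb for Mesp1 and 6.34 for Mesp2.

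Tbx6 is the T-box factor that directs streak progeny to paraxial mesoderm instead of neural tissue (ENSMUSG00000030699, chromosome 7, 126781483 to 126785560, plus strand). It was low throughout, at 4.58, 0.182 and 9.62 CPM in YFP-positive and 1.51, 5.18 and 13.3 CPM in YFP-negative cardiac mesoderm. Endoderm had 7.48, 4.14 and 4.16 CPM, and hematopoietic mesoderm had 0, 0 and 3.99 CPM. All 19 hematopoietic counts came from replicate 3, the library that also stood high for Eomes and Mixl1. Both cardiac fractions and endoderm overlapped one another, and of these types only endoderm did not overlap hematopoietic mesoderm. No comparison of Tbx6 passed the test, with edgeR adjusted p from 0.523 to 1. For both cardiac fractions against hematopoietic mesoderm the log2 difference was 2.07 as reported. It ran from 1.49 to 8.14 over the alternatives, and 0 of them passed.

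Msgn1, a basic helix-loop-helix factor that acts with Tbx6 in presomitic mesoderm, was the rarest of the 8 (ENSMUSG00000047002, chromosome 12, 11208360 to 11208972, minus strand). YFP-negative cardiac mesoderm had 1.01, 11.4 and 7.39 CPM, from 6, 81 and 51 counts. The other 9 libraries held 3 counts in all, of which endoderm had 2, YFP-positive cardiac mesoderm 1 and hematopoietic mesoderm 0. In that last type 3 counts over its libraries would have been 0.204 CPM. The YFP-negative fraction did not overlap any other type, although its own replicates spanned more than 10 CPM. Pooled counts in the YFP-negative fraction exceeded the YFP-positive fraction by a ratio of 108 (95% exact interval 19.1 to 4306) and endoderm by 77.3 (21 to 645), and were at least 33.8-fold higher than in hematopoietic mesoderm. Msgn1 did not pass the filter on low counts and so is in no count of genes tested. In a fit without that filter, the log2 difference of the YFP-positive from the YFP-negative fraction had an unadjusted p of 0.0101 and an edgeR adjusted p of 0.631. Against endoderm and hematopoietic mesoderm the edgeR adjusted p for the YFP-negative fraction was 0.29 and 0.142.

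**Figure D2:**
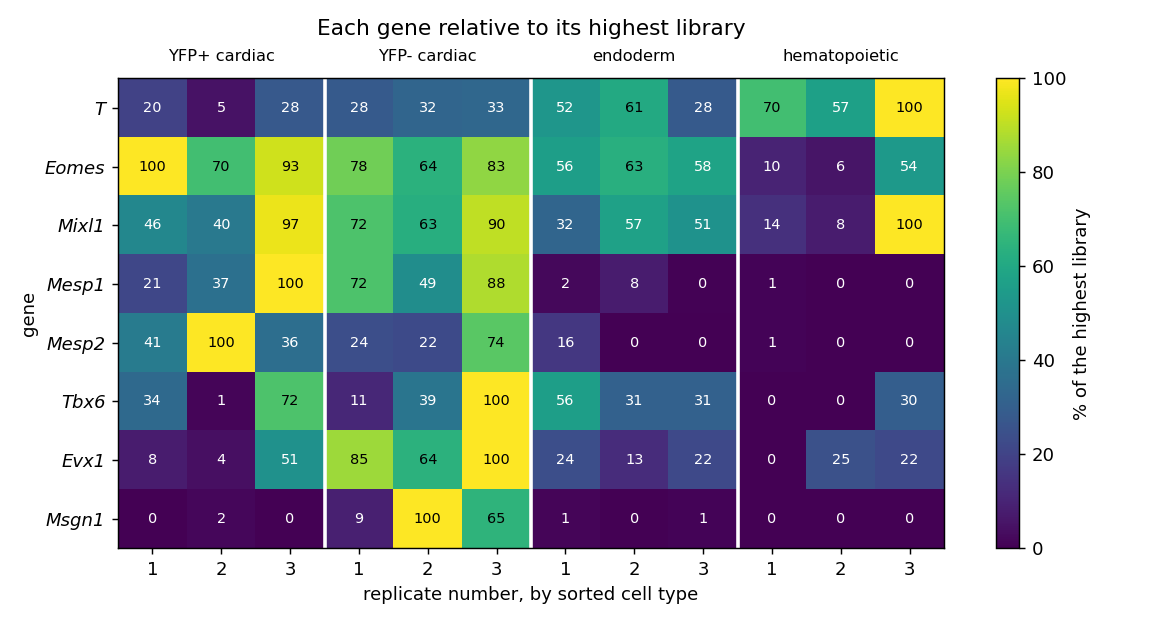
Level of each of the 8 genes (rows) in each of the 12 libraries (columns, by sorted cell type and replicate number) as a percentage of that gene's highest library; colour and printed number give the same value. The 6 cardiac libraries hold the high values of Mesp1 and Mesp2, the 3 YFP-negative libraries the highest 3 of Evx1 and of Msgn1, and hematopoietic replicate 3 the highest value of both T and Mixl1.

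Levels per kilobase of exon take out exon length when different genes are compared. Whether reads covered the exons evenly in these amplified libraries was not tested, so the order of genes is approximate. In the YFP-positive fraction it was led by Eomes (103 ± 18.7 CPM per kb, SD, n = 3) and Mixl1 (96.9 ± 49.1), ahead of T (28.3 ± 18.8) and Mesp1 (22.3 ± 17.7). In the YFP-negative fraction Mixl1 (119 ± 22.3) and Eomes (88.5 ± 12.1) again led, ahead of T (50.6 ± 4.46), Mesp1 (29.6 ± 8.34) and Evx1 (28 ± 6.01). Endoderm held T (76.2 ± 27.4), Mixl1 (74.2 ± 20.3) and Eomes (69.4 ± 4.11) at means closer to each other than the SD of T or of Mixl1. In hematopoietic mesoderm T led at 122 ± 35.8 CPM per kb, and the means of Mixl1 (64.1 ± 81.5) and Eomes (27.4 ± 31.4) rested on replicate 3. Tbx6 was at or below 3.7 CPM per kb in every type.

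The question the design puts first is how cardiac mesoderm with a Foxa2 history differs from cardiac mesoderm without it. Of the 7 genes of this group that passed the filter, 0 differed between the fractions by edgeR, 0 had an unadjusted p under 0.05, and 0 were called by DESeq2, in which Eomes had no adjusted p. Over all 14170 genes tested, edgeR called 0%, 7.49% had an unadjusted p under 0.05, and DESeq2 called 0.888% of those it tested. For 2 of the 7, T and Evx1, the libraries did not overlap, both being lower in the YFP-positive fraction. Over all genes tested 12.1% did not overlap, 7.04% of all being lower in the YFP-positive fraction. In the fitted values 5 of the 7 were lower in the YFP-positive fraction, with a median log2 difference of -0.40 beside 0.03 over all genes tested.

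Against endoderm, 0 of 7 genes passed in either cardiac fraction or in their mean, where edgeR called 1.54%, 1.31% and 4.52% of all genes tested for the YFP-positive fraction, the YFP-negative fraction and their mean. At an unadjusted p under 0.05 the numbers were 2, 1 and 2 of 7, beside 15.8%, 10.3% and 15.2% of all genes. DESeq2, which again gave Eomes no adjusted p, called 2 (T and Mesp1), 1 (Mesp1) and 1 (Mesp1), beside 6.97%, 4.48% and 6.66%. Libraries did not overlap for 4 of 7 in the YFP-positive fraction (T, Eomes, Mesp1 and Mesp2), 5 of 7 in the YFP-negative fraction (Eomes, Mixl1, Mesp1, Mesp2 and Evx1) and 3 of 7 for both fractions together. The shares over all genes tested were 30.3%, 29.4% and 14.9%. These comparisons rest on endoderm libraries that also held epiblast and node markers, as given above. T was the 1 gene fitted lower in both fractions than in endoderm, by 1.43 and 0.59 on the log2 scale, with edgeR adjusted p of 0.156 and 0.93.

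Against hematopoietic mesoderm, 1 of 7 genes, Mesp1, passed in each cardiac fraction, beside 1.79% (YFP-positive) and 0.593% (YFP-negative) of all genes tested, or 1.15% and 0.402% higher in the cardiac fraction. With both fractions together 2 of 7 passed, Mesp1 higher and T lower, beside 2.58% of all genes tested, 1.26% higher and 1.32% lower. At an unadjusted p under 0.05 each of the 3 comparisons held 4 of 7, beside 19.5%, 17.4% and 20.8%. DESeq2 called 3, 2 and 3, beside 11.4%, 8.34% and 12.4%: Mesp1 and Mesp2 in each, and T in all but the YFP-negative fraction. Eomes had no DESeq2 adjusted p in any of these comparisons, so it is not among the genes that DESeq2 could call. T in the YFP-positive fraction alone fell just short, with a log2 difference of -2.11 ± 0.50 (SE; edgeR adjusted p = 0.0514), and passed in 6 of 15 alternatives, RLE scaling (0.0495) among them. Libraries did not overlap for 4 of 7 in the YFP-positive fraction, 5 of 7 in the YFP-negative fraction and 4 of 7 together, where the shares over all genes tested were 14%, 18.6% and 7.69%. Without hematopoietic replicate 3, edgeR called 3 genes in each of these 3 comparisons, Eomes, Mixl1 and Mesp1, all higher in cardiac mesoderm, while T no longer passed. Both fractions were compared with the same hematopoietic libraries, so their values are not independent of each other. Endoderm against hematopoietic mesoderm gave 0 of 7 by edgeR beside 5.65% of all genes tested, and 3 of 7 at an unadjusted p under 0.05 beside 22.8%. It gave 0 by DESeq2, again with no adjusted p for Eomes, beside 14.4%, and 2 of 7 without overlap (Eomes and Tbx6) beside 34.3%. Without hematopoietic replicate 3 that comparison called 2, Eomes and Mixl1, both higher in endoderm.

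**Figure D3:**
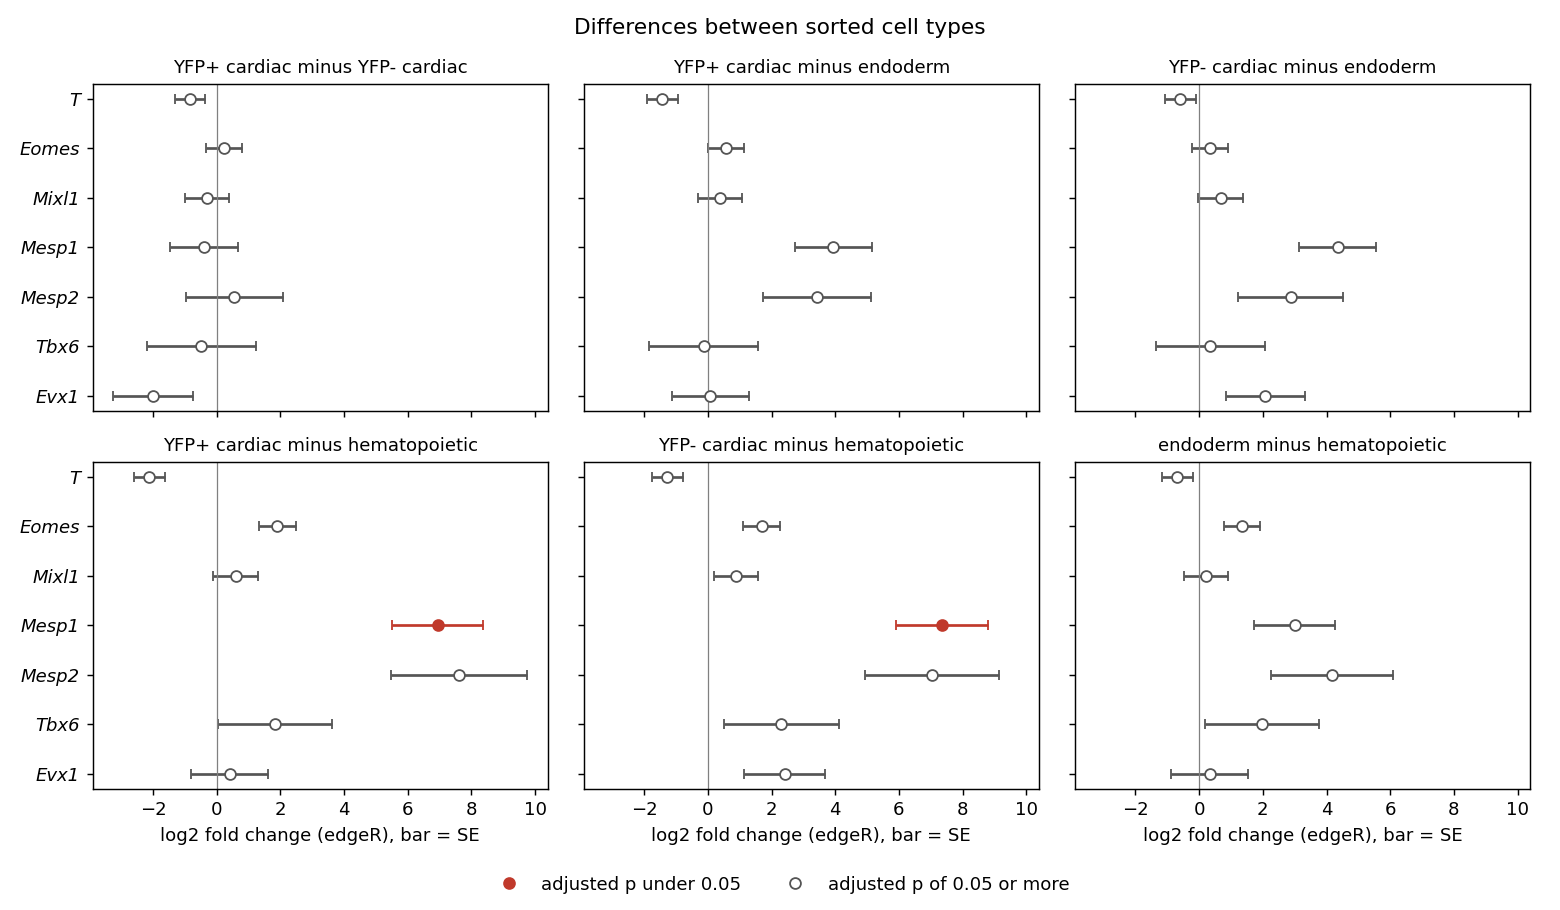
Fitted log2 fold change (horizontal axes; bars are standard errors) of the 7 tested genes in the 6 pairwise comparisons of sorted types. Filled red points passed an edgeR adjusted p of 0.05; these are Mesp1 in each cardiac fraction against hematopoietic mesoderm, and T lies to the left of 0 in all 6 panels.

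**Figure D4:**
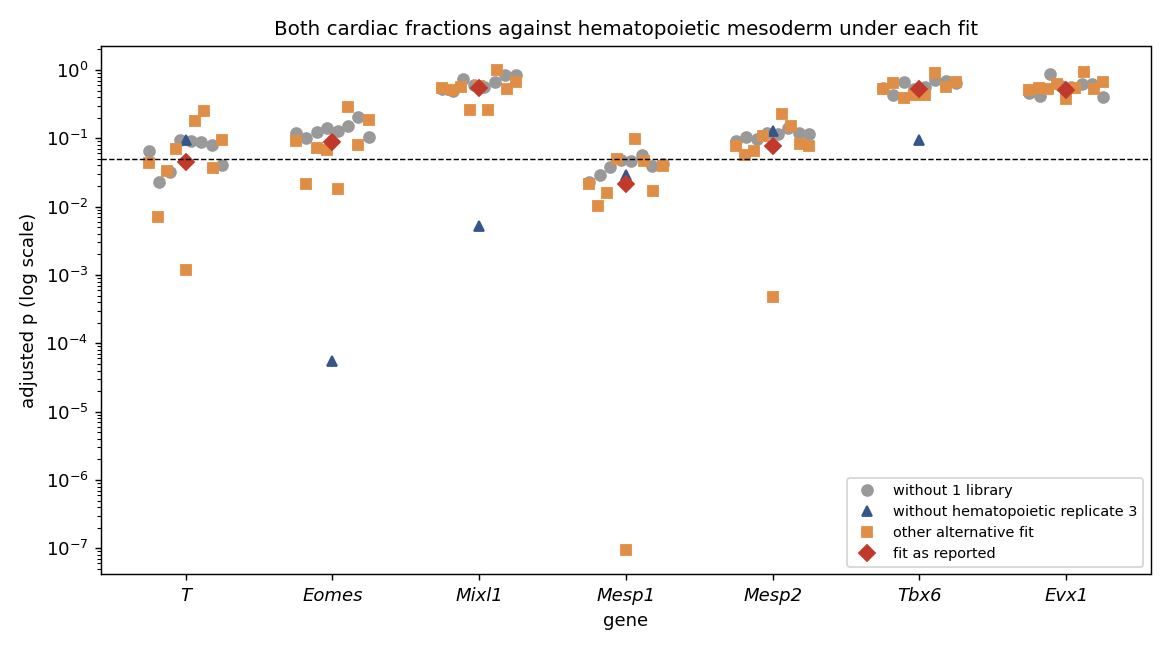
Adjusted p (vertical axis, log scale) of the 7 tested genes for both cardiac fractions against hematopoietic mesoderm, in the fit as reported (red), in fits without 1 library (grey, and blue for hematopoietic replicate 3) and in the other alternatives (orange); the dashed line is 0.05. Mesp1 stays under the line in 16 of 18 alternatives and T in 8 of 18, while Eomes and Mixl1 fall far under it without hematopoietic replicate 3.

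Across the 12 libraries the levels of Eomes and Mixl1 varied together (Pearson r of log2 CPM 0.90), as did those of Mesp1 and Mesp2 (0.85). T ran opposite to Mesp2 (-0.72) and Mesp1 (-0.58), and had an r of -0.43 with Eomes. These are descriptions, since libraries of 1 type share their cell type and were all made by amplification. Among genes with a mean of at least 5 CPM, the closest pattern to Eomes was that of Adam19 (r = 0.974), followed by Setbp1 (0.974) and Tdgf1 (0.973). Mef2c was closest to Mesp1 (0.95), with means of 27.3 CPM in the YFP-positive fraction, 23.4 in the YFP-negative fraction, 1.21 in endoderm and 0.289 in hematopoietic mesoderm. Plxna4os2 was closest to Mesp2 (0.963), Pink1 to Mixl1 (0.937), Gne to Evx1 (0.927), Xylt1 to Tbx6 (0.913) and Fopnl to T (0.906).

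Other genes of the streak and its progeny were taken as 5 lists, in which 0 genes passed between the cardiac fractions. For both fractions together, edgeR called 4.52% of all genes tested against endoderm, 190 genes higher and 450 lower. Against hematopoietic mesoderm it called 2.58%, 179 genes higher and 187 lower. The counts in each list below stand beside these shares. Of 12 signals that act in the streak, 11 were tested. Lefty2, a Nodal target that restrains Nodal signalling, was higher in both cardiac fractions than in hematopoietic mesoderm and was the 1 of 11 to pass (log2 difference 7.54 ± 0.76, SE; edgeR adjusted p = 0.000562). YFP-positive cardiac mesoderm had 89.5, 57.2 and 134 CPM, YFP-negative cardiac mesoderm 55.8, 76.5 and 134 CPM, and hematopoietic mesoderm 0.482, 0.693 and 0.21 CPM. The hematopoietic libraries held 7 counts of it in all, and replicate 3 was as low as the others. Against endoderm 4 of 11 were higher in both fractions together: Bmp4, Rspo3, Wnt5a and Lefty2, with log2 differences of 2.78, 1.67, 3.87 and 2.45. The Wnt5a call was lost without endoderm replicates 2 or 3, that of Rspo3 without endoderm replicates 1 or 3, and that of Lefty2 in 6 of 9 fits without 1 library. The median log2 difference of the list was 0.91 against endoderm and 1.40 against hematopoietic mesoderm, beside -0.02 and 0.02 over all genes tested. Nodal itself had 50.7, 26.8 and 47.7 CPM in endoderm and 0 counts in all 3 hematopoietic libraries, and of the cardiac libraries YFP-positive replicate 3 had the most, 9.44 CPM.

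Other transcription factors of the streak and posterior embryo were tested for 13 of 14 genes. Among those higher in both cardiac fractions than in hematopoietic mesoderm were Lhx1 and Lef1, with log2 differences of 4.23 ± 0.73 and 2.35 ± 0.56 (SE) and edgeR adjusted p of 0.0118 and 0.045. Lhx1 passed in all 9 fits without 1 library, whereas Lef1, the partner of beta-catenin in the Wnt response, passed only without hematopoietic replicate 3, where its level was 204 CPM against 24.8 and 41.4 in the others. Snai1, which drives the loss of epithelial form in the streak, had 47.9 to 137 CPM over the 6 cardiac libraries and 0, 0.173 and 46.8 CPM in hematopoietic replicates 1, 2 and 3. Replicate 3 thus stood apart for Snai1 and Lef1 as it did for Eomes and Mixl1. Against endoderm, Foxa2 alone passed and was lower in the cardiac fractions (log2 difference -8.11 ± 1.34, SE; edgeR adjusted p = 0.00692). Foxa2, the driver of the Cre, had 0.416, 0 and 5.92 CPM in the YFP-positive fraction and 0 counts in the YFP-negative fraction. Cdx4, a posterior homeobox factor, had 10.4, 4.2 and 3.04 CPM in the YFP-negative fraction, 0, 0 and 0.925 CPM in the YFP-positive fraction and 0 counts in all 6 other libraries, and the difference between the fractions did not pass (edgeR adjusted p = 0.665). Of the 13 tested genes of the list, 5 did not overlap between the fractions, beside 12.1% of all genes tested: Lhx1 was higher in the YFP-positive libraries, and Cdx2, Cdx4, Hoxb1 and Nkx1-2 were lower. They were singled out after their values were seen, and edgeR adjusted p ran from 0.626 to 0.907. The same count gave 2 of 11 for the streak signals, 1 higher and 1 lower in the YFP-positive libraries. It gave 0 of 9 for the paraxial and presomitic genes below. For the targets of the MESP and EOMES factors, also below, it gave 4 of 17, 3 higher and 1 lower. For the streak and posterior transcription factors, the median log2 difference of both fractions was -0.83 against endoderm and 2.47 against hematopoietic mesoderm. The latter was 2.35 with genes absent from 1 side set at their lower bound.

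Of 11 paraxial and presomitic genes, 9 were tested. The Notch ligands Dll1 and Dll3 and the forkhead factor Foxc1 were higher in both cardiac fractions than in hematopoietic mesoderm, each also in all 9 fits without 1 library, with edgeR adjusted p of 0.00235, 0.00881 and 0.0145. Dll1 had 137, 29.3 and 81.6 CPM in the YFP-positive fraction, 78.3, 82 and 57.9 in the YFP-negative fraction and at most 0.241 CPM in hematopoietic mesoderm. Foxc1 had 0 counts in hematopoietic mesoderm and was at least 101-fold higher in the cardiac fractions. Hes7 and Tcf15, which belong to the presomitic oscillator and to the paraxial mesoderm, were lower in the cardiac fractions than in endoderm. Hes7 had 10.7, 7.12 and 14 CPM in endoderm and at most 0.208 CPM in any cardiac library (edgeR adjusted p = 0.00901; lost without endoderm replicates 1 or 3). The Tcf15 call (edgeR adjusted p = 0.0271) was lost in all 9 fits without 1 library and with the replicate block (0.086). The 1 other change against endoderm was Rspo3, already given. The median log2 difference of the list was 2.13 against endoderm and 0.97 against hematopoietic mesoderm.

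Of 18 genes known as targets of the MESP and EOMES factors, 17 were tested. In both cardiac fractions together 7 were higher than in endoderm and 2, Foxa2 and Sox17, lower, with a median log2 difference of 3.23 over the list. Examples are Kdr, the receptor for VEGF (5.62 ± 0.36, SE), Pdgfra, the receptor that marks cardiac mesoderm (4.59 ± 0.73), and Etv2, the regulator of blood and endothelial fate (5.86 ± 0.96). Many genes of this list, among them Kdr, Pdgfra, Etv2, Foxa2 and Sox17, are also in the marker lists above, and Kdr is a gene of the sorts. The differences may therefore restate cell type or the sort, and a link to the MESP and EOMES factors was not tested. Against hematopoietic mesoderm 2 of 17 were higher, Lhx1 and Pdgfra, with a median of 0.88 over the list. Of 17 T-box genes, 10 were tested, T, Eomes and Tbx6 among them. Tbx20, Tbx3 and Tbx5, which act later in the heart, were higher in the cardiac fractions than in endoderm, by log2 differences of 3.23 ± 0.31, 2.65 ± 0.27 and 6.72 ± 1.71 (SE; edgeR adjusted p = 0.000117, 0.00015 and 0.0429). The Tbx5 call was lost with the replicate block (0.108) and in 8 of 9 fits without 1 library. For both fractions together against hematopoietic mesoderm, T was the 1 T-box gene that passed, lower in the cardiac fractions and lost with the replicate block (edgeR adjusted p = 0.0704). The YFP-positive fraction alone had 1 T-box gene higher than hematopoietic mesoderm, Tbx5 (edgeR adjusted p = 0.0479), and the YFP-negative fraction had 0. For both fractions together the list's median log2 difference was 0.42 against hematopoietic mesoderm and 0.88 against endoderm.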

How the data were processed

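The authors deposited raw read counts per gene for 12 libraries, whole numbers that are not normalized. The labels' protocols name a kit for very small RNA samples and a low-input amplification system. Per the submitters' processing notes, STAR 2.5.0a, Picard, HTSeq 0.6.0 and DESeq2 were used with mm10. The annotation and strand setting are not given in the sources used here. Between 18.3% and 21.5% of a library's reads were counted in genes, and the summary categories at the foot of each table were left out. Since the libraries were amplified and carry no molecular identifiers, floors and intervals cover counting error only.

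Symbols were found for 37607 of 38924 genes. Counts were fitted with edgeR 4.0.16 in R 4.3.3 (TMM scaling, default filter, quasi-likelihood test, two-sided). All 12 libraries were fitted with 1 coefficient per type and 8 residual degrees of freedom. In each of 8 comparisons p-values were adjusted by Benjamini-Hochberg over 14170 genes, and an adjusted p under 0.05 was a call. The 8 comparisons share libraries, and 2 of them use the mean of both cardiac fractions. The fits with DESeq2 1.42.0 and limma 3.58.1 (voom with quality weights), RLE scaling, no filter, a mean of at least 5 CPM, a replicate block, a log2 difference over 1, thinning to 4472800 counts, only the types compared, and without each library were alternatives. The procedure was tested on simulated data. Loci and exon lengths come from GENCODE on GRCm38. Levels per kb are CPM divided by exon length.

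All 8 genes are named. For likeness, genes were ranked by Pearson r of log2 CPM (prior count 2) over the 12 libraries. From the other lists at most 4 genes per comparison were named, those with the smallest adjusted p, while the choice of Snai1, Nodal, Cdx2, Cdx4, Hoxb1, Nkx1-2 and Sox17 came after seeing their values. The result of 1 list gene is not reported here. The genes and lists were chosen with earlier results of these data known.

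Whether replicate numbers pair the libraries was checked from deviations from type means. Over 18 same-numbered pairs, r ran from -0.0177 to 0.0319. The names of the deposited tables carry 1 date for each of the 3 numbers, the same in all 4 types, and what the date records is not given.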

Additional observations from a re-analysis of the deposited data

How the results depend on the processing

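Of the alternative values for single genes, 771 kept direction and side of the threshold, 38 newly passed, 29 no longer passed and 26 changed direction. Counts of called genes among the 7 moved as follows, where those of DESeq2 leave out Eomes, for which it gave no adjusted p. For YFP-positive cardiac mesoderm against endoderm (0 as reported), DESeq2 and voom each gave 2. For YFP-negative cardiac mesoderm against endoderm (0), DESeq2 gave 1, voom 3 and the fit of only the types compared 2. In the YFP-positive fraction against hematopoietic mesoderm (1), RLE scaling gave 2, no filter 3, a mean of at least 5 CPM 2, DESeq2 3 and thinning 2, while voom, a log2 difference over 1 and only the types compared gave 0. For YFP-negative cardiac mesoderm against hematopoietic mesoderm (1), DESeq2 gave 2, a log2 difference over 1 and only the types compared gave 0, and voom gave 1, which was Eomes in place of Mesp1. For endoderm against hematopoietic mesoderm (0), voom gave 1. For both fractions against endoderm (0), DESeq2, thinning and only the types compared gave 1 and voom 3. For both fractions against hematopoietic mesoderm (2, T and Mesp1), a log2 difference over 1 and only the types compared gave 1 (Mesp1), voom gave 1 (Eomes) and so lost both reported calls, and no filter and DESeq2 each gave 3. Fits without 1 library gave 0 to 3 for each cardiac comparison with hematopoietic mesoderm, 0 to 2 for endoderm against hematopoietic mesoderm, and 0 in the other comparisons. The cause of these moves was not tested. The 2 cardiac fractions gave 0 in every fit.

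With the replicate block, the count was 0 in each cardiac fraction against hematopoietic mesoderm and 1 (Mesp1) for both together, and the block changed no other call among the 8 genes. The block turned the log2 difference of Evx1 between YFP-positive cardiac mesoderm and endoderm to -0.50 and that of Tbx6 to -0.21 (YFP-negative against endoderm) and -0.68 (both fractions against endoderm). Voom turned these same 3 values to -0.67, -0.032 and -0.64, and thinning turned the last to -0.00089. None of the values that changed direction was a call. In the fits without 1 library, the log2 differences that changed direction ran as follows. Between the fractions, Mesp2 ran from -0.051 to 1.34 and Tbx6 from -1.485 to 0.49. Against endoderm in the YFP-positive fraction, Mixl1 ran from -0.11 to 0.61, Tbx6 from -1.14 to 0.43 and Evx1 from -1.75 to 0.57. Tbx6 ran from -0.66 to 0.79 for the YFP-negative fraction and from -0.42 to 0.42 for both. Evx1 ran from -1.42 to 0.90 for the YFP-positive fraction against hematopoietic mesoderm. For endoderm against hematopoietic mesoderm, Mixl1 ran from -0.28 to 2.12, Mesp2 from -0.19 to 6.397 and Evx1 from -0.25 to 0.83.

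Over all genes tested the counts also moved. Between the fractions 0 genes became 115 with DESeq2. Against hematopoietic mesoderm 253 (YFP-positive) ran from 13 to 1505, 84 (YFP-negative) from 10 to 1081, 366 (both) from 90 to 1634 and 800 (endoderm) from 180 to 1903. Against endoderm 218 (YFP-positive) ran from 71 to 1130, 185 (YFP-negative) from 69 to 1812 and 640 (both) from 179 to 2512. A level under 3 counts per library (at most 0.723 CPM) cannot be told from 0 at this depth, which bears on Mesp1 and Mesp2 outside cardiac mesoderm. It bears on Msgn1 in every type but the YFP-negative fraction. Also under this level were Tbx6 in YFP-positive replicate 2 and hematopoietic replicates 1 and 2, and Evx1 in hematopoietic replicate 1. The number of genes with a count also differed between the types, as given above. Whether this has a part in these low values, or in the low Msgn1, Cdx4 and Evx1 of the YFP-positive fraction, was not tested.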
